A study of Mus musculus with 21 samples.

Results

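Lgals3, Lyz2 and Cd68, 3 genes best known from macrophages, were followed in mouse hearts with a floxed or a wild-type gene for lamin A/C (Lmna). They were found as the intervals that lie inside 3 given windows of the mouse genome build mm39 on the given strand, keeping the most read one where several overlapped. This gave 3 loci of the 46278 that the deposited table holds after overlapping intervals are merged. The windows were drawn with results of these data in view, among them the differences between the Lmna genotypes, so every Lmna comparison of the 3 genes is given as a description, with no test.

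The hearts were studied by SLAM-IT-seq, a method that marks newly made RNA in chosen cells. The enzyme uracil phosphoribosyltransferase (Uprt) lets a cell build the uracil analogue 4-thiouracil into its RNA, and after treatment with iodoacetamide the analogue is read as a T>C conversion. All 21 mice carried Myh6MCM Tg/0, a Cre recombinase under the cardiomyocyte promoter of Myh6 that acts after tamoxifen. Tamoxifen injections on 4 days began when the animals were 6 to 8 weeks old, 4-thiouracil followed 2 weeks later, and hearts were taken 6 hours after it.

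There were 6 Lmna F/F mice with Uprt Tg/0 (4 females and 2 males) and 8 Lmna +/+ mice with Uprt Tg/0 (4 females and 4 males). Another 4 Lmna F/F mice had no Uprt transgene (2 females and 2 males), as did 3 Lmna +/+ mice, all of them male. F is the floxed Lmna allele, which the recombinase deletes in the cells where it acts, so other cells of an F/F heart keep the gene; how much Lmna RNA was left was not looked up here. The labels do not say which promoter drives Uprt. RNA came from the free wall of the left ventricle with all its cell types, and each mouse gave 1 library of 25947350 to 50951635 reads on 3′ ends.

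Macrophages live in the healthy heart, where they clear debris, and monocytes from the blood add to them after injury. Lgals3 encodes galectin-3, a secreted lectin that binds galactose-bearing sugars and that activated macrophages make, although other cells can make it too. Lyz2 encodes lysozyme M, an enzyme that cuts bacterial cell walls and is a product of macrophages, monocytes and neutrophils. Cd68 encodes macrosialin, a heavily glycosylated protein of the LAMP family in the endosomes and lysosomes of macrophages. The files pair no transcript ID with a gene name, so other macrophage markers and markers of other cell types were not looked up here, and the label of the 3 genes was not checked against them. In RNA from whole tissue, more cells of a type and more RNA per cell cannot be told apart.

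The Lgals3 locus was ENSMUST00000142734.8, on chr14:47623138-47623617 of mm39, plus strand, a 3′ interval of 480 bases with 148 T positions. It was the most read of 3 overlapping intervals in its window and held 29422 reads over the 21 libraries, of which 1216 carried a T>C conversion. The shortest of the 3, which is its first 114 bases with 32 T positions, already held 29305 reads and 1207 T>C reads. The Lyz2 locus was ENSMUST00000092163.9, on chr10:117113236-117114025, minus strand, with 790 bases and 208 T positions. It held 290177 reads and 5008 T>C reads. The Cd68 locus was ENSMUST00000018918.12, on chr11:69555039-69555196, minus strand, with 158 bases, 41 T positions, 10761 reads and 345 T>C reads. Cd68 therefore rested on the fewest reads and the fewest T>C reads in all. In +/+ mice, though, Lgals3 had fewer T>C reads than Cd68, 36 against 67 with Uprt and 8 against 11 without.

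Few of these reads mapped to more than 1 place. There were 3 such reads at Lgals3 (0.0102% of its reads), 213 at Lyz2 (0.0734%) and 4 at Cd68 (0.0372%). Lyz2 has a close relative, Lyz1, which RefSeq lists as its neighbour. The nearest interval on its strand, 9677 bases away on chr10:117123702-117124487, held 1164 reads and 13 T>C reads in all 21 libraries together, against 290177 and 5008 at Lyz2. How reads that fit both genes were assigned is not given in the sources used here, but reads of that neighbour numbered 3 to 272 per library and were few beside those of Lyz2. The next interval to Cd68, 2566 bases away on chr11:69557762-69558298, held 122519 reads of which 56.2% were multimapped, and it does not overlap Cd68.

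The 250 bases before the start of each gene are shown because the 3 genes differed between the Lmna genotypes in the same direction. They are RefSeq's, on GRCm38.p6, an older build than that of the reads, read 5′ to 3′ along each gene's own strand. Lgals3 is at chr14:47373610-47373859 (plus), Lyz2 at chr10:117282273-117282522 (minus) and Cd68 at chr11:69666171-69666420 (minus). Capitals mark matches on either strand to 5 short motifs, which were picked after these letters had been seen.
Lgals3: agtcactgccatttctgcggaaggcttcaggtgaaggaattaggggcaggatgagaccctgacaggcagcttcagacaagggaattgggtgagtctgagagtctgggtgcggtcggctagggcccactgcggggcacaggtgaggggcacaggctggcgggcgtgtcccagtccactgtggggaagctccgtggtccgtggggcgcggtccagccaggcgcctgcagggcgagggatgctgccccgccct
Lyz2: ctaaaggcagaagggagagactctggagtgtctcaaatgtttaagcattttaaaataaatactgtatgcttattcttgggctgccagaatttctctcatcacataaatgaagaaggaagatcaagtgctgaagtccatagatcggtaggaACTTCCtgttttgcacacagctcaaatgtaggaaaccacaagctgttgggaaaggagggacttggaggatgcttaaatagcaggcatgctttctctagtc
Cd68: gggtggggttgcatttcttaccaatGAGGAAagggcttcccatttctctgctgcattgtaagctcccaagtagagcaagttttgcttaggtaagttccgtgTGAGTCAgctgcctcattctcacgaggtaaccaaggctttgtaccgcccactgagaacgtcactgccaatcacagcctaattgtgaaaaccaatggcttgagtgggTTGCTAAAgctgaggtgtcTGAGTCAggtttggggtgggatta

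The motifs were the ETS core GGAAGT, the purine box GAGGAA, the AP-1 motif TGANTCA, the E-box CACGTG and the C/EBP motif TTGCNNAA. None of them overlapped another in the letters shown. Lyz2 had an ETS core that begins 100 bases before the start, on the other strand. Cd68 had a purine box at 225 bases, AP-1 motifs at 149 and 24 bases and a C/EBP motif at 43 bases before the start. Lgals3 matched none of the 5 in these letters. The 50 bases after the start are not shown. There Cd68 also had an ETS core 11 bases and a purine box 29 bases after the start, and Lgals3 and Lyz2 had no match. Over 32851 RefSeq promoter windows that also take in the 50 bases after the start, 23.8% hold the ETS core, 28.3% the purine box, 7.81% the AP-1 motif, 7.15% the E-box and 10.8% the C/EBP motif. The matches describe letters and say nothing of binding.

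Levels are given as CPM, counts scaled by the size of each library with TMM factors. A pair of libraries stood apart before any comparison: Lmna F/F replicates 1 and 2 without Uprt were the highest of the 21 mice for each of the 3 genes. The 4 mice of that group are given one by one, and the fitted Lmna and Uprt changes that rest on the pair are given with and without it.

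Lgals3 was far higher in every Lmna F/F heart than in any Lmna +/+ heart. With Uprt it stood at 77.7, 67.5, 67.8, 39.3, 48.7 and 35.6 CPM in the 6 F/F mice, against a lowest of 5.17, a median of 6.79 and a highest of 10.8 CPM in the 8 +/+ mice. Those values came from 1638 to 2975 reads per F/F library and 160 to 370 per +/+ library. The means were 56.1 ± 17.3 CPM (SD, n = 6) in F/F and 6.93 ± 1.79 CPM (SD, n = 8) in +/+. Without Uprt the 4 F/F mice had 138, 111, 22.9 and 45.2 CPM, against 3.94, 4.00 and 3.62 CPM in the 3 +/+ mice. Even the lowest F/F mouse, at 22.9 CPM, was above the highest +/+ mouse of either transgene group. The group means fell in the order F/F without Uprt (79.3 ± 54.2), F/F with Uprt, +/+ with Uprt and +/+ without Uprt (3.85 ± 0.202), and among neighbours in that order the ranges of the F/F groups overlapped.

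Lyz2 was the most read of the 3 genes and differed by less. The 6 F/F mice with Uprt had 678, 535, 495, 374, 421 and 351 CPM, and the 8 +/+ mice with Uprt had 132 to 220 CPM with a median of 163. Means were 476 ± 121 CPM (SD, n = 6) and 171 ± 30.0 CPM (SD, n = 8). Without Uprt the F/F mice had 859, 842, 350 and 461 CPM and the +/+ mice 202, 145 and 179 CPM, with means of 628 ± 261 (SD, n = 4) and 175 ± 28.8 (SD, n = 3). Lyz2 was thus well expressed in hearts with intact Lmna, where both transgene groups had nearly the same mean and overlapping ranges. All F/F mice lay above all +/+ mice.

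Cd68 had 19.8, 18.1, 17.0, 17.0, 16.3 and 13.5 CPM in the F/F mice with Uprt, a narrow spread, against 4.65 to 7.73 CPM with a median of 5.75 in the +/+ mice with Uprt. Means were 16.9 ± 2.07 CPM (SD, n = 6) and 5.98 ± 1.09 CPM (SD, n = 8). In mice without Uprt it had 44.9, 32.9, 8.37 and 15.5 CPM in F/F, against 6.33, 4.33 and 5.96 CPM in +/+. The lowest of these F/F mice, replicate 3, was only a little above the highest +/+ mouse, which had 7.73 CPM. Means were 25.4 ± 16.6 CPM (SD, n = 4) and 5.54 ± 1.06 CPM (SD, n = 3).

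**Figure D1:**
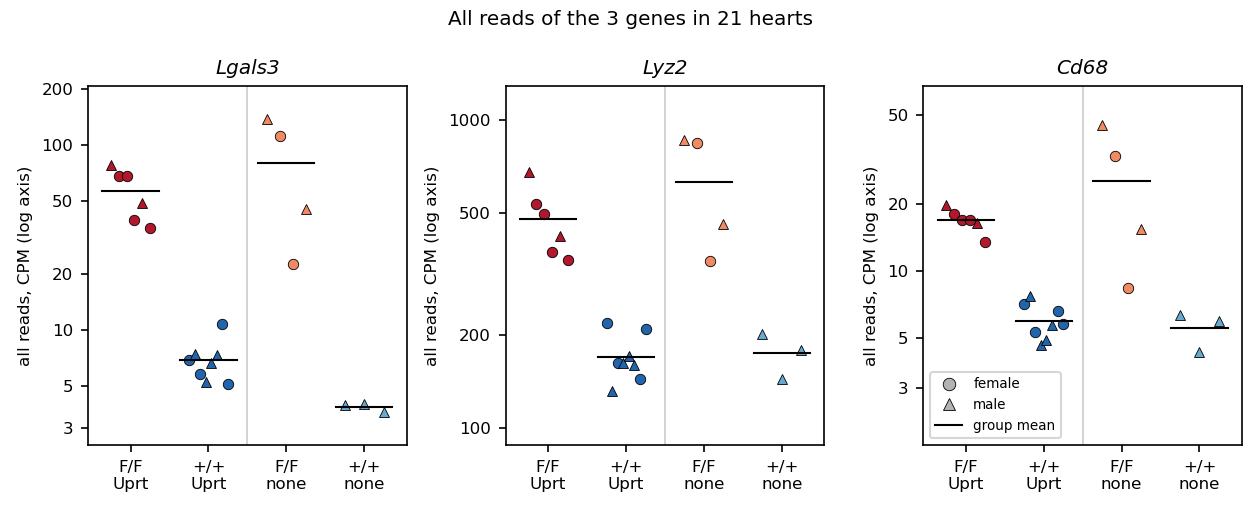
All reads of each gene per mouse in CPM (log axis), in F/F and +/+ hearts with Uprt (left of the grey line) and without it (none, right of the line). Circles are females, triangles are males and bars are group means; within each transgene group every F/F mouse sits above every +/+ mouse, and F/F mice without Uprt spread the most, with Lgals3 at 22.9 to 138 CPM.

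Counted over the members, all 3 genes had F/F mice entirely above +/+ mice, both with and without Uprt. This was so at 1.98% of the 20523 loci tested with Uprt and at 9.48% without. Since the genes were chosen on these contrasts, the counts are listed beside the background and nothing is read from them. In edgeR's fit of all 21 libraries with sex as a term, the log2 fold change with Uprt was 3.03 ± 0.28 (SE) for Lgals3, 1.48 ± 0.18 for Lyz2 and 1.52 ± 0.23 for Cd68, F/F over +/+. Without Uprt it was 4.43 ± 0.47 for Lgals3, 1.85 ± 0.28 for Lyz2 and 2.25 ± 0.36 for Cd68. These SEs rest on 1 estimate of the spread per locus, shared by all 21 libraries. Fitted on the mice without Uprt alone, the changes were 4.57, 1.91 and 2.44 in the same order of genes. The median over all loci was near 0 in both comparisons, at -0.00 and 0.01.

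The size of the difference without Uprt rested in part on the pair of high libraries. With both left out, it was 3.21 for Lgals3, 1.23 for Lyz2 and 1.15 for Cd68 on the log2 scale. The change with Uprt minus the change without it was -1.39 ± 0.49 (SE) for Lgals3, -0.37 ± 0.32 for Lyz2 and -0.73 ± 0.41 for Cd68 with all libraries in. Without the pair it was -0.18 for Lgals3, 0.24 for Lyz2 and 0.36 for Cd68, so the sign turned for Lyz2 and Cd68 and little was left at Lgals3. With all libraries in, the estimates in all reads ran in the order Lgals3, Cd68, Lyz2 in both transgene groups. Cd68 and Lyz2 differed by less than their SE with Uprt, and without the pair Lyz2 stood above Cd68 in mice without Uprt.

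Both sexes showed the difference where both were present. With Uprt, Lgals3 averaged 52.6 CPM in the 4 F/F females against 7.17 CPM in the 4 +/+ females, and 63.2 CPM in the 2 F/F males against 6.69 CPM in the 4 +/+ males. Lyz2 averaged 439 against 184 CPM in females and 550 against 157 CPM in males, F/F against +/+. For Cd68 it was 16.4 against 6.22 CPM in females and 18.0 against 5.75 CPM in males. The ranges of F/F and +/+ mice did not overlap within either sex, which follows from their not overlapping with both sexes together. How many other loci do so within a sex was not counted, and nothing is read from it. Without Uprt the +/+ mice were all male, so there the comparison within a sex rests on 2 F/F males against 3 +/+ males: Lgals3 averaged 91.6 against 3.85 CPM, Lyz2 660 against 175 and Cd68 30.2 against 5.54.

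Sex itself and the transgene were not used to choose the genes, so these could be tested. Females against males gave log2 fold changes of -0.15 ± 0.24 (SE) for Lgals3, -0.03 ± 0.16 for Lyz2 and -0.13 ± 0.21 for Cd68. None of the 3 was called (edgeR adjusted p = 0.876, 0.973 and 0.881 in that order of genes), where 0.132% of loci were. The 95% intervals from the SE ran to -0.62 and 0.32 for Lgals3, -0.34 and 0.28 for Lyz2 and -0.53 and 0.28 for Cd68.

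The transgene came next, averaged over both Lmna genotypes. Uprt against none gave 0.23 ± 0.26 (SE) for Lgals3, -0.21 ± 0.16 for Lyz2 and -0.19 ± 0.22 for Cd68 on the log2 scale. None was called (edgeR adjusted p = 0.802, 0.692 and 0.808, in the order Lgals3, Lyz2, Cd68), against 0.122% of loci. Without the pair of high libraries the values were 0.85, 0.11 and 0.34 in the same order of genes, and still none was called (edgeR adjusted p = 0.116, 0.849 and 0.431). The sign of Lyz2 and Cd68 therefore hung on those 2 mice.

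Taken by genotype, the direction in F/F mice rested on the same pair. With all libraries in, the log2 fold changes were -0.47 ± 0.32 (SE) for Lgals3, -0.40 ± 0.21 for Lyz2 and -0.55 ± 0.28 for Cd68, and none was called (edgeR adjusted p = 0.563, 0.453 and 0.416), where 0.0341% of loci were. Without the pair they were 0.76 for Lgals3, 0.23 for Lyz2 and 0.52 for Cd68, and again none was called (edgeR adjusted p = 0.736, 0.886 and 0.736). In CPM, the 6 F/F mice with Uprt averaged 56.1 for Lgals3, 476 for Lyz2 and 16.9 for Cd68, where the 2 F/F mice then left without Uprt averaged 34.1, 405 and 11.9 in the same order. In +/+ mice Lgals3 was higher with Uprt by 0.92 ± 0.39 (SE, edgeR adjusted p = 0.600), with Lyz2 at -0.02 ± 0.24 (adjusted p = 0.997) and Cd68 at 0.18 ± 0.32 (adjusted p = 0.962). The percentage of loci called there was 0.0%, with 1505 of 20523 at an unadjusted p under 0.05. For Lgals3 every one of the 8 +/+ mice with Uprt, at 5.17 CPM or more, stood above all 3 without it, at 4.00 CPM or less, which held for 0.663% of loci. The 4 males among the 8 had 5.28 to 7.44 CPM, and the 3 mice without Uprt were all male. A difference within males was not tested.

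**Figure D2:**
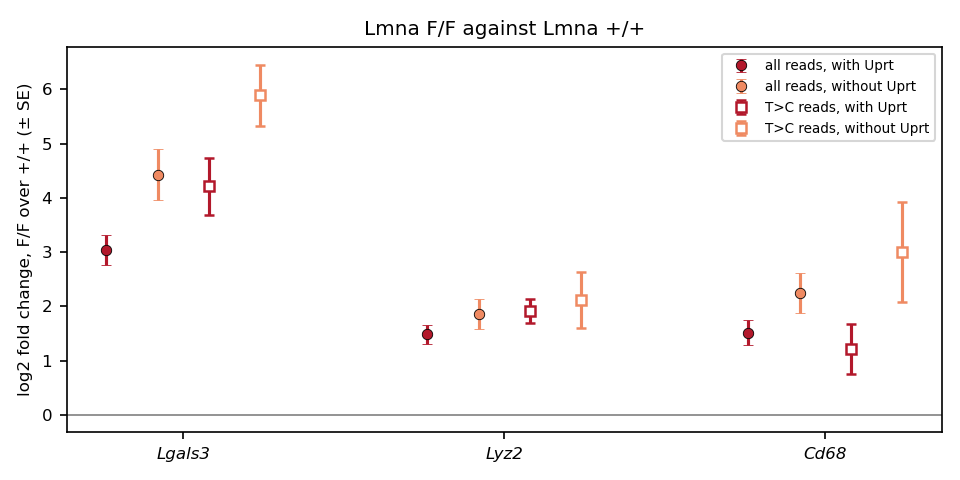
Log2 fold change of each gene, F/F over +/+, in all reads (filled circles) and in T>C reads (open squares), with Uprt and without it. Points are edgeR estimates and bars are 1 SE; Lgals3 has the largest estimate of the 3 genes in all 4 comparisons, up to 5.89 in T>C reads without Uprt.

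T>C reads are the readout for RNA made during the 6 hours of labelling, together with a background of conversions that arise without it. At Lgals3 the F/F mice with Uprt had 159, 63, 188, 61, 44 and 58 T>C reads, and the 8 +/+ mice had 0 to 11 with a median of 4. Without Uprt the F/F mice had 170, 161, 80 and 188, and the +/+ mice 4, 2 and 2. Lgals3 thus gave many T>C reads in F/F hearts that had no labelling transgene, and hardly any in +/+ hearts with it.

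Lyz2 gave 479, 339, 613, 243, 222 and 286 T>C reads in F/F mice with Uprt and 46 to 107 in +/+ mice with Uprt, whose median was 84.5. In mice without Uprt there were 471, 765, 204 and 443 in F/F and 97, 61 and 144 in +/+. Again the ranges of the genotypes were apart in both transgene groups. Cd68 gave few, namely 21, 14, 38, 38, 21 and 13 in F/F mice with Uprt against 3 to 14 in +/+ mice with Uprt, which overlap. Without Uprt its counts were 30, 52, 12 and 28 in F/F against 0, 4 and 7 in +/+.

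Fitted apart in the 14 mice with Uprt, the log2 fold change of T>C reads was 4.21 ± 0.53 (SE) for Lgals3, the highest estimate of 10621 loci, 1.92 ± 0.22 for Lyz2 and 1.21 ± 0.46 for Cd68. In the 7 mice without Uprt it was 5.89 ± 0.57 for Lgals3, 2.12 ± 0.51 for Lyz2 and 3.00 ± 0.92 for Cd68. Scaled by T>C reads per library, Lgals3 and Lyz2 did not overlap between genotypes with Uprt and all 3 genes did not overlap without. That was so at 0.405% of loci with Uprt and 5.49% of 8765 loci without, and nothing is read from it. With the pair of high F/F libraries left out, the changes without Uprt were 5.62, 1.71 and 2.62, in the order Lgals3, Lyz2 and Cd68. Single +/+ mice moved these values by over 1.5 times as well: Lgals3 was at 6.52 without +/+ replicate 1, and Cd68 at 3.59 without +/+ replicate 3. With 1 mouse left out at a time they ran at 5.52 to 6.52 for Lgals3, 1.71 to 2.44 for Lyz2 and 2.54 to 3.59 for Cd68. T>C reads are a part of all reads, so these changes are not separate from those in all reads.

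The T>C share, the percentage of a locus's reads that carry a conversion, takes the level out. At Lgals3 it was 6.03, 2.12, 6.63, 3.39, 2.56 and 3.54% in F/F mice with Uprt, a mean of 4.04% ± 1.86 (SD, n = 6), and 2.09% ± 2.04 (SD, n = 8) in +/+ mice with Uprt, where single mice had 0 to 5.14%. Without Uprt the F/F mice had 2.89, 3.61, 8.52 and 8.50%, and the +/+ mice 2.78, 1.27 and 1.16%. Replicates 3 and 4 of the F/F group without Uprt, the pair with less Lgals3 RNA, thus had the highest shares of all 21 mice. Their exact (Clopper-Pearson) 95% intervals were 6.81 to 10.5% and 7.37 to 9.74%, apart from the 2.47 to 3.35% and 3.08 to 4.20% of replicates 1 and 2. These intervals cover counting error only. In +/+ mice the counts behind the share were small: replicates 1 and 8 with Uprt had 0 of 247 and 0 of 160 reads, which allows a share of up to 1.21% and 1.88%.

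The share of Lyz2 was low everywhere. It was 2.08, 1.44, 2.96, 1.42, 1.49 and 1.77% in F/F mice with Uprt and 1.41% ± 0.202 (SD, n = 8) in +/+ mice with Uprt. Without Uprt it was 1.28, 2.27, 1.42 and 1.97% in F/F and 1.32, 1.07 and 1.69% in +/+. All 21 values lay between 1.07 and 2.96%, and the 4 groups overlapped. With 3808 to 36678 Lyz2 reads in a library this was the best measured share of the 3.

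Cd68 had shares of 3.13, 1.76, 5.34, 4.89, 3.63 and 2.09% in F/F mice with Uprt and 1.53 to 7.35% in +/+ mice with Uprt, with means of 3.48% ± 1.45 (SD, n = 6) and 4.40% ± 2.14 (SD, n = 8). In mice without Uprt it was 1.57, 3.95, 3.50 and 3.70% in F/F, and 2.34 and 2.47% in +/+ replicates 2 and 3. Replicate 1 of that +/+ group had 0 of 231 reads, which allows a share of up to 1.30%. At 136 to 283 reads per +/+ library, a single mouse's interval was several percentage points wide, and the groups could not be told apart beyond their spread.

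In the same model, the log2 odds ratio of F/F over +/+ with Uprt was 1.02 ± 0.50 (SE) for Lgals3, 0.34 ± 0.18 for Lyz2 and -0.33 ± 0.48 for Cd68. Without Uprt it was 1.73 ± 0.83 for Lgals3, 0.27 ± 0.26 for Lyz2 and 1.01 ± 0.72 for Cd68, and with the pair of high libraries left out it was 2.53, 0.30 and 1.40 in the same order of genes. These are descriptions. In the share itself, only Lgals3 without Uprt had F/F mice entirely above +/+ mice, which was so at 3.06% of 11938 loci. None of the 3 genes did with Uprt, where 0.0251% of loci did. For Lgals3 without Uprt the gap was narrow, at 2.89% in F/F replicate 1 against 2.78% in +/+ replicate 1. That +/+ value rested on 4 of 144 reads, and its exact (Clopper-Pearson) interval of 0.762 to 6.96% held the F/F value.

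As a yardstick, the share over all nuclear loci of the same library averaged 5.30% in F/F and 5.01% in +/+ mice with Uprt, and 3.53% in F/F and 3.15% in +/+ mice without. Lyz2 lay below the nuclear share of its own library in 21 of 21 mice, and Lgals3 and Cd68 each in 15 of 21. A read of Lyz2 covered a group mean of 24.4 to 24.5 T positions, against 20.7 to 21.2 for nuclear reads. Why Lyz2 lay below the nuclear share was not tested. Per 1000 T positions read, Lyz2 had 0.785, 0.604, 0.737 and 0.565 conversions in F/F with Uprt, +/+ with Uprt, F/F without and +/+ without Uprt, where nuclear loci had 2.72, 2.58, 1.74 and 1.59. Lgals3 reads covered 18.8 to 20.3 T positions and Cd68 reads 22.6 to 23.2.

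**Figure D3:**
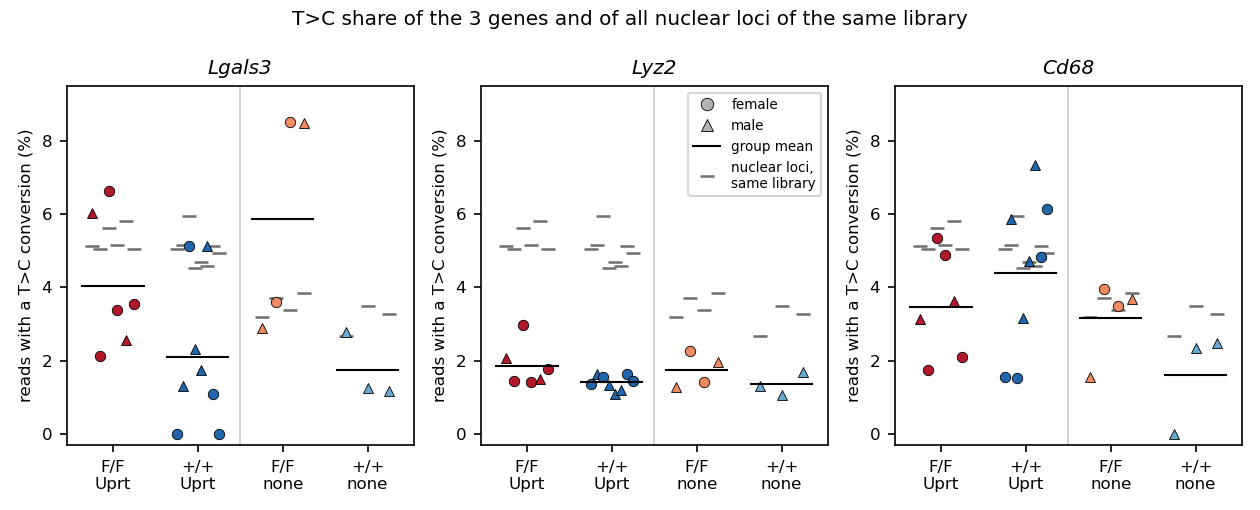
Percentage of reads with a T>C conversion per mouse for each gene, in F/F and +/+ hearts with Uprt (left of the grey line) and without it (none, right). Circles are females, triangles males, long bars group means and short grey dashes the share over all nuclear loci of the same library; every Lyz2 point lies under its grey dash, and the 2 highest Lgals3 points, at 8.50 and 8.52%, are F/F mice without Uprt.

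Whether Uprt raised the share of each gene was tested on converted and unconverted reads of all 21 libraries. Lyz2 had the narrowest interval of the 3 and differed little between mice with Uprt and mice without. Its log2 odds ratio was 0.02 ± 0.16 (SE, edgeR adjusted p = 0.918), with an interval of -0.30 to 0.34. That interval excluded the median of 1.15 over the 11938 loci tested. Cd68 had 0.84 ± 0.44 (SE, edgeR adjusted p = 0.105), an interval of -0.03 to 1.70 that holds both 0 and that median. For Lgals3 the interval was wide, -1.36 to 1.15, and its upper end came close to the median. None of the 3 was called, where 59.2% of loci were. Without the pair of high libraries the values were -0.45 for Lgals3, 0.062 for Lyz2 and 0.78 for Cd68 (edgeR adjusted p = 0.531, 0.793 and 0.186).

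By genotype, no gene was called either. In F/F mice, where 45.6% of loci were called, Lgals3 had -0.46 ± 0.50 (SE, edgeR adjusted p = 0.468), Lyz2 0.06 ± 0.21 (adjusted p = 0.832) and Cd68 0.17 ± 0.52 (adjusted p = 0.814). Without the pair these were -1.19 (edgeR adjusted p = 0.144), 0.091 (adjusted p = 0.831) and -0.067 (adjusted p = 0.956), for the genes in that order. In +/+ mice, where 37.3% were called, the values were 0.25 ± 0.82 (SE, edgeR adjusted p = 0.829) for Lgals3, -0.02 ± 0.24 (adjusted p = 0.963) for Lyz2 and 1.51 ± 0.70 (adjusted p = 0.0911) for Cd68. Cd68 thus came nearest to the threshold, in hearts with intact Lmna, where it had 67 T>C reads in all 8 mice with Uprt and 11 in the 3 without. Whether the Cd68 effect differs between genotypes was not tested, since that contrast takes in the Lmna comparison the genes were chosen on. The share did not differ between the sexes past the threshold at any of the 3 genes, with edgeR adjusted p = 0.978 for Lgals3, 0.963 for Lyz2 and 0.990 for Cd68. The percentage of loci called there was 0.0% too, with 690 of 11938 at an unadjusted p under 0.05.

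**Figure D4:**
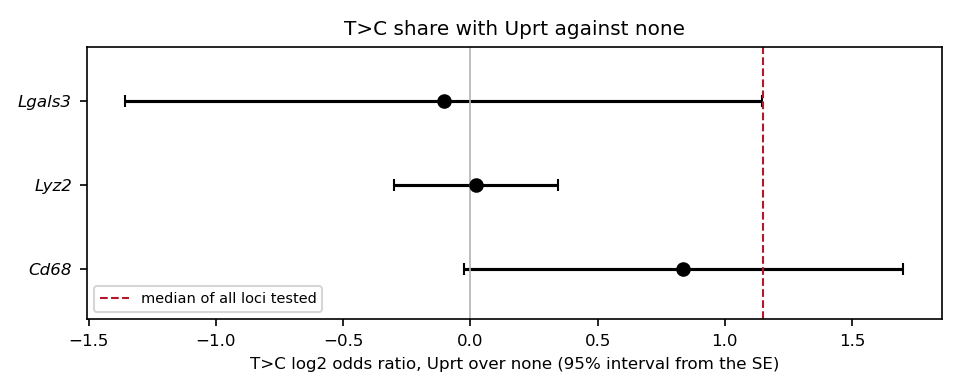
T>C log2 odds ratio of each gene, Uprt over none (points), with its 95% interval from the SE (bars); the dashed line is the median over all 11938 loci tested and the grey line is 0. The interval of Lyz2, -0.30 to 0.34, lies around 0 and left of the dashed line, and that of Cd68 spans both lines.

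The share was also set against the nuclear share of the same library, mouse by mouse, to ask whether a gene gained less than its library did. The nuclear log2 odds themselves were higher with Uprt by 0.62 in F/F and 0.70 in +/+ mice. The log2 odds of Lyz2 by itself were higher by 0.087 in F/F and 0.067 in +/+ mice. Its relative values thus largely restate the nuclear gain, and how many other loci fall as far behind was not counted. Relative to the nuclear loci, Lyz2 was lower with Uprt by 0.63 in +/+ mice (two-sided exact permutation p = 0.0364, n = 8 and 3), with 6 of 8 mice below all 3 without Uprt. In F/F mice it was lower by 0.53 (exact permutation p = 0.0667, n = 6 and 4), with 5 of 6 mice below all 4. Lgals3 was lower by 1.14 in F/F mice (exact permutation p = 0.0571, n = 6 and 4) and by 1.13 in +/+ mice (exact permutation p = 0.327, n = 8 and 3). Cd68 was lower by 0.50 in F/F mice (exact permutation p = 0.238, n = 6 and 4) and higher by 1.18 in +/+ mice (exact permutation p = 0.230, n = 8 and 3). Over these 6 tests the lowest Benjamini-Hochberg adjusted exact permutation p was 0.133, so none passed. Without the pair the F/F values were -1.85 for Lgals3, -0.48 for Lyz2 and -0.75 for Cd68 (exact permutation p = 0.0714, 0.214 and 0.0714, n = 6 and 2, where 0.0714 is the smallest p possible). In +/+ mice Cd68 rested on replicate 1 without Uprt, the mouse with 0 T>C reads, without which its value was 0.085. Lgals3 in +/+ mice was at -0.66 without that mouse and at -0.13 by conversions per T position. With all mice in, the smallest p possible was 0.00952 for 6 against 4 mice and 0.0121 for 8 against 3.

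How far the genes kept in step was read from ratios of reads, which compare mice and not the levels of different genes. Cd68 reads per 100 Lyz2 reads were alike in all groups, at 3.66 ± 0.554 in F/F with Uprt, 3.62 ± 1.07 in +/+ with Uprt, 3.72 ± 1.18 in F/F without Uprt and 3.15 ± 0.167 in +/+ without Uprt (SD, n = 6, 8, 4 and 3). Lgals3 reads per Cd68 read were not: 3.27 ± 0.716 and 1.17 ± 0.246 in F/F and +/+ with Uprt, and 3.03 ± 0.275 and 0.718 ± 0.178 in F/F and +/+ without. The F/F ratios, 2.32 to 3.99 with Uprt and 2.74 to 3.39 without, were all above the +/+ ratios, 0.894 to 1.62 and 0.608 to 0.924. Lgals3 per 100 Lyz2 reads was 11.7 ± 1.33 in F/F with Uprt and 4.25 ± 1.62 in +/+ with Uprt. Lgals3 therefore stood out from the other 2 genes in how much more of it F/F hearts had, again as a description.

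Among mice of 1 group, the spread was not used to choose the genes, and 6 correlations of log2(CPM + 0.5) were tested by exact permutation. In the 6 F/F mice with Uprt, Lgals3 and Lyz2 had r = 0.957 (exact permutation p = 0.00556, adjusted p = 0.025) and rho = 0.943 (exact permutation p = 0.0167, adjusted p = 0.050). Lgals3 and Cd68 had r = 0.827 (exact permutation p = 0.0167, adjusted p = 0.0333) and rho = 0.886 (exact permutation p = 0.0333, adjusted p = 0.0667). Lyz2 and Cd68 had r = 0.862 (exact permutation p = 0.00833, adjusted p = 0.025) and rho = 0.943 (exact permutation p = 0.0167, adjusted p = 0.050). F/F mice with more of one gene thus had more of the others by Pearson's r, while no rho passed after adjustment. How many other pairs of loci reach such an r in these 6 mice was not counted. The correlations are therefore not shown to be particular to these genes. Replicates 1, 2 and 3 held the 3 highest values of Lgals3 and of Lyz2. Without the 2 mice farthest from the median of the first gene, r was 0.910, 0.848 and 0.676 over 4 mice, for the pairs in that order. With any 1 of the 6 mice left out, Lgals3 and Lyz2 kept an unadjusted exact permutation p of 0.0333 or less. Lgals3 and Cd68 missed an unadjusted p under 0.05 without replicate 1 (r = 0.738, exact permutation p = 0.10), replicate 2 (r = 0.812, exact permutation p = 0.050) or replicate 6 (r = 0.717, exact permutation p = 0.10). Lyz2 and Cd68 missed it without replicate 1, 2 or 6 (r = 0.765, 0.850 and 0.894, exact permutation p = 0.050 each). Over 5 mice r stayed at 0.717 or more for both pairs.

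In the 8 +/+ mice with Uprt no correlation passed. Lgals3 and Lyz2 had r = -0.487 (exact permutation p = 0.203, adjusted p = 0.244) and rho = -0.643 (exact permutation p = 0.0962, adjusted p = 0.144). Lgals3 and Cd68 had r = 0.554 (exact permutation p = 0.162, adjusted p = 0.244) and rho = 0.595 (exact permutation p = 0.132, adjusted p = 0.159). For Lyz2 and Cd68 r was -0.128 (exact permutation p = 0.749, adjusted p = 0.749) and rho -0.190 (exact permutation p = 0.665, adjusted p = 0.665). Leaving out the 2 farthest mice gave -0.0994, 0.721 and -0.949 over 6 mice, so these values moved with single mice. The difference between F/F and +/+ mice in how the genes go together was not tested.

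**Figure D5:**
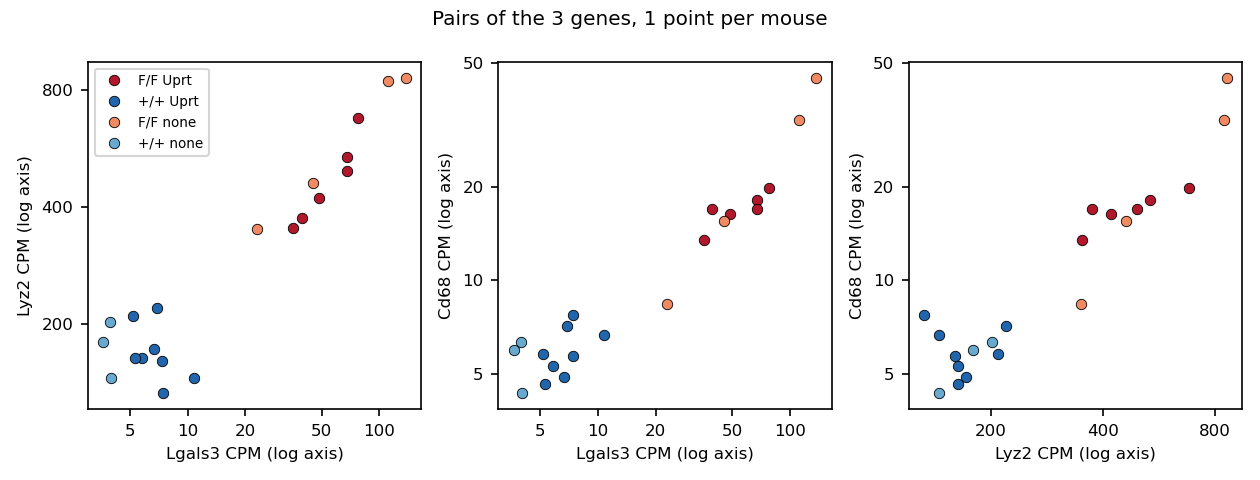
CPM of 1 gene against another (log axes), 1 point per mouse, coloured by group (none is without Uprt). The 6 F/F mice with Uprt line up in each panel, with r between 0.827 and 0.957, and the +/+ mice of both transgene groups form a cloud at the low end.

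Across all 21 libraries each gene was set beside the 14103 loci with a mean of at least 1 CPM, a likeness that takes in the difference between genotypes and is a description. Among the other loci, Cd68 was the 7th and Lyz2 the 12th most like Lgals3, with r of 0.958 and 0.948. For Lyz2, Lgals3 was the 22nd and Cd68 the 23rd. For Cd68, Lgals3 was the 15th and Lyz2 the 36th. Outside the 3 windows, the loci most like Lgals3 were on chr5:134628957-134629827, minus strand (r = 0.966), and chr7:127749367-127749829, plus strand (r = 0.965). Those most like Lyz2 were on chr4:133820847-133821037, minus strand (r = 0.978), and chr6:40551828-40554899, minus strand (r = 0.969). Those most like Cd68 were on chr4:130661862-130663452, plus strand (r = 0.976), and chr6:123223400-123223978, plus strand (r = 0.975). All 6 were higher in F/F than in +/+ mice on average, from 2.53 against 0.228 CPM at the chromosome 7 locus to 30.2 against 11.3 CPM at the chromosome 4 locus most like Cd68. The loci share libraries and depth, and no gene name is given to them here.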

How the data were processed

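The authors deposited 1 table of counts per 3′ interval and library, in the column layout of SlamDunk, per the file headers: reads, T>C reads, multimapped reads, read bases over T positions and conversions over them. The genome build was mm39, per the submitters' processing notes. No source used here states the aligner settings or how many conversions make a T>C read. The deposited CPM column, a score per the file headers, was not used. Libraries were made from RNA treated with 12 mM iodoacetamide and sequenced for 100 bases, per the labels' protocols; all 21 share 1 pool label, so no batch could be formed, and replicates are separate mice.

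Overlapping intervals of 1 strand were reduced to the most read, and intervals sharing a transcript were summed (208307 intervals, 120310 kept, 46278 loci). The members and the lists were chosen with earlier results of these data known. The fixed lists of cell type markers, galectins and lysosome genes were not run, since 0 transcript IDs could be paired with names; nor was the level of Lmna. Named loci are the 3 members, intervals of their strand within 20 kb, and for each member the 2 loci with the highest Pearson r outside the windows.

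Counts were fitted in R 4.3.3 by edgeR 4.0.16's quasi-likelihood test, with TMM scaling, filterByExpr at a minimum count of 10, and group and sex as terms; T>C reads were fitted apart by transgene. The T>C share was fitted on converted and unconverted reads with an effect per library. SE is the log2 change over the square root of F; intervals at 95% come from the SE and the normal distribution. Adjustment was Benjamini-Hochberg over all loci tested. Permutation tests were exact and two-sided, taken as 2 times the smaller tail, as scipy 1.17.1 does. This definition was adopted after p-values under another, the share of regroupings with an absolute value at least as large, had been seen. It raised those of the relative shares, moved those of the correlations either way, and left the same correlations past the threshold. Relative shares are log2 odds with 0.5 added to converted and unconverted reads, minus those of the nuclear loci. Confidence intervals are 95% Clopper-Pearson, and a count of 0 allows 3 counts. Fits were tested on simulated counts. Alternatives were DESeq2 1.42.0, other scalings, filters, covariates, a limma 3.58.1 quasi-binomial model and each library left out. Leaving out Lmna F/F replicates 1 and 2 without Uprt together was added after seeing the data.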

Additional observations from a re-analysis of the deposited data

Results flagged for a closer look

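In a search for mice that lie apart from the rest of their group, Lgals3 in Lmna +/+ replicate 7 with Uprt stood out, at 10.8 CPM against 5.17 to 7.44 CPM in the other mice of that group. Its gap to the next mouse was 0.595 of the group's range, above Dixon's 95% limit for 8 mice. Lyz2 and Cd68 of the same mouse, at 145 and 6.65 CPM, did not stand apart. Chance marks about 1 in 20 groups of this kind, and 18 were searched.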

How the results depend on the processing

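All Lmna changes of the 3 genes in all reads and T>C reads kept their direction under every alternative run. With Lmna F/F replicates 1 and 2 without Uprt both left out, chosen after seeing the data, the change in all reads without Uprt was 3.21 for Lgals3, 1.23 for Lyz2 and 1.15 for Cd68 (log2), and Uprt against none turned to 0.11 for Lyz2 and 0.34 for Cd68. In F/F mice alone Uprt against none turned to 0.76 for Lgals3, 0.23 for Lyz2 and 0.52 for Cd68, and the T>C share of Cd68 to -0.067. The Lmna change with Uprt minus that without was -0.18 for Lgals3 and turned to 0.24 for Lyz2 and 0.36 for Cd68. The share of Lgals3 in F/F against +/+ mice without Uprt was 2.53. No gene was called for Uprt in all reads or in the T>C share, or for sex in all reads, under any alternative run. Sex in the T>C share was not fitted under the alternatives. Other signs that turned belong to values that were never called. Library size alone in place of TMM gave Lyz2 0.036 in females against males and r = 0.102 for Lyz2 and Cd68 in +/+ mice, and left Lyz2 and Cd68 in F/F mice short of an unadjusted p under 0.05 (r = 0.834, exact permutation p = 0.0611), where Lgals3 and Cd68 in +/+ mice passed it (r = 0.721, exact permutation p = 0.0265). For the T>C share, Uprt against none, a quasi-binomial model gave -0.030 for Lyz2 and 0.12 for Lgals3, and +/+ mice alone gave -0.046 for Lyz2. The share of Lyz2 relative to its library passed unadjusted in F/F mice by conversions per T position (-0.58, exact permutation p = 0.0476) and missed in +/+ mice against all loci (-0.42, exact permutation p = 0.0727) and in males alone (-0.66, exact permutation p = 0.114).

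Leaving out 1 mouse at a time gave, for females against males, -0.13 to 0.10 for Lyz2, -0.26 to 0.075 for Cd68 and -0.33 to 0.047 for Lgals3. For the share, Uprt against none, it gave -0.056 to 0.11 for Lyz2, -0.29 to 0.13 for Lgals3 and 0.50 to 1.13 for Cd68. The edgeR adjusted p of Cd68 ran at 0.0682 to 0.316 in that series, and the other alternatives gave it 0.11 to 1.82. The relative share in F/F mice ran at -1.39 to -0.87 for Lgals3, -0.66 to -0.41 for Lyz2 and -0.78 to -0.34 for Cd68, and in +/+ mice at -1.43 to -0.66 for Lgals3, -0.87 to -0.50 for Lyz2 and 0.085 to 1.76 for Cd68. The lowest unadjusted exact permutation p in these series were 0.0476, 0.0159, 0.0238, 0.167, 0.0333 and 0.133. In +/+ mice r of Lyz2 and Cd68 ran at -0.568 to 0.333.

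With library size alone, the median of all loci was 0.16 and 0.18 in the Lmna comparisons and -0.13 for Uprt. The members' changes under that scaling are to be read against it. Loci called for Uprt in all reads numbered 25, with 133 by DESeq2, 393 without the filter and 10 to 44 with 1 mouse left out. For sex they numbered 27, with 250, 598 and 10 to 283 in the same order, and for the share 7063, with 3421 in +/+ mice alone. For F/F against +/+ without Uprt, 1828 loci were called in all reads, but 5 when only the groups compared were fitted. With Uprt the numbers were 901 and 1351. No paired analysis was possible, since each library is a separate mouse and the labels name no pairs. The labels give no replicate numbers either, so those used here only number the mice of a group in the order of the samples. Summing all intervals of a window could not differ, since each window kept 1. Low counts limit the +/+ values of Cd68 (136 to 283 reads per library) and of Lgals3 (144 to 370). The p-values measure the spread between these mice, and the 3 +/+ mice without Uprt were all male.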
